A study of Mus musculus with 14 samples.

Results

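The cytosolic ribosome of the mouse is built from ribosomal RNA and a fixed set of proteins, and the genes of those proteins were followed here across normal and obstructed kidney. Members were chosen by name and gene type alone: protein-coding genes whose symbol begins with Rpl or Rps followed by a digit, together with Rpsa, Rplp0, Rplp1 and Rplp2, and without the Rps6k kinases. The rule found 92 genes among the 47729 rows of each library. Of these, 46 encode proteins of the large subunit, 31 encode proteins of the small subunit, 8 are paralogues of another member, 6 carry a pseudogene-like symbol, and 1, Rps19bp1, encodes a protein that binds a ribosomal protein and is not itself part of the ribosome. Fau and Rack1, which also encode ribosome constituents, fall outside the symbol rule and are described apart.

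The data are 14 RNA-seq libraries of mouse kidney in 4 groups: 3 of untreated wild-type kidney, 4 of wild-type kidney 7 days into unilateral ureteral obstruction (UUO, closure of the ureter of 1 kidney, which leads to tubular injury and fibrosis), 3 of untreated kidney labelled SMOC2 transgenic and 4 of UUO kidney labelled SMOC2 transgenic. SMOC2 is a secreted calcium-binding protein of the extracellular matrix. The promoter and the cell type that drive the transgene, the strain and the age of the mice, and whether each library came from its own animal are not stated in the labels. A treatment text attached to the samples speaks of folic acid in male Balb/c mice, which goes against the design and the sample labels. The groups follow the latter.

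Each ribosomal protein is present once in the ribosome, except the acidic stalk proteins, so that the cell needs its many messages in like amounts. Their messenger RNAs begin with a C followed by a run of pyrimidines, the 5′ terminal oligopyrimidine (TOP) tract, through which mTOR signalling and the RNA-binding protein LARP1 control translation and storage of the whole class. In the kidney, as elsewhere, the demand for ribosomes rises in growing and dividing cells. RPL5 and RPL11, when not bound in a ribosome, inhibit MDM2 and so link ribosome assembly to p53.

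Total counts ran from 19483994 to 30033405 per library. Levels are given in CPM, that is, counts per 1000000 of the library size after scaling by the trimmed mean of M-values (TMM). The scaling factors were 0.80 to 0.86 in the 6 normal libraries and 1.13 to 1.20 in the 8 UUO libraries, so the scaling itself separates the states. Mitochondrially encoded genes held 8.07% to 10% of counts in normal libraries and 3.41% to 4.93% in UUO libraries. Smoc2 was not higher under the transgenic label: wild-type normal libraries held 25.2 ± 16.1 CPM and those labelled transgenic 21.8 ± 9.66 CPM (SD, n = 3 each), and the UUO libraries held 147 ± 11.4 CPM and 96.1 ± 18.5 CPM (SD, n = 4 each), with edgeR adjusted p-values of 0.85 and 0.389. The libraries are therefore called by their label below. A list of 10 kidney tubule and glomerulus markers was detected in full in every group, and its summed level was 18147 to 23344 CPM in normal and 2660 to 5530 CPM in UUO libraries. Leukocyte markers, 14 in all, summed to 201 to 258 CPM in normal and 1121 to 1861 CPM in UUO libraries, fibroblast and myofibroblast markers, 10 in all, to 227 to 621 CPM and 3026 to 5405 CPM, and markers of proliferating cells, 12 in all, to 88.3 to 125 CPM and 329 to 444 CPM, with none at 0 in any group. In each genotype label all 10 tubule and glomerulus markers fell, and 12 of 14 leukocyte, all 10 fibroblast and all 12 proliferation markers rose. These markers thus moved with UUO, and the part of cell makeup in the results that follow was not tested. In whole tissue a lower level from fewer cells of a type and from less RNA per cell cannot be told apart.

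The start of the message is what the members share, and the windows of the genes that carry the main results are shown here, from 10 bases before to 20 bases after each gene's first transcribed base in the RefSeq table of build GRCm38.p6, on the strand of the gene. Capitals mark the longest run in the window that begins with C and goes on with at least 4 bases that are each C or T.
Rpl12, chr2:32961702-32961731, + strand: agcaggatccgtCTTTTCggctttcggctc
Rps12, chr10:23787190-23787219, - strand: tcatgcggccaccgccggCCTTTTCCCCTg
Rps9, chr7:3704031-3704060, + strand: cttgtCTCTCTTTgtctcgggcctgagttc
Rps6, chr4:86857348-86857377, - strand: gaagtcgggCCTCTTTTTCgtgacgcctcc
Rplp2, chr7:141447641-141447670, + strand: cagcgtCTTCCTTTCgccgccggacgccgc
Rps27, chr3:90213629-90213658, - strand: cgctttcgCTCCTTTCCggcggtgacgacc
Rpl35a, chr16:33056472-33056501, + strand: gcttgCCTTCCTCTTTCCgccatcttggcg
Rps27l, chr9:66946076-66946105, + strand: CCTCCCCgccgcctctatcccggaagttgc
Rpl22l1, chr3:28805498-28805527, + strand: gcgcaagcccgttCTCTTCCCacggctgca
The first 3 are among the members with the largest rise in wild-type UUO, the next 4 are members with wild-type log2 changes from -0.60 (Rpl35a) to 0.39 (Rps27), and the last pair are paralogues that moved in opposite directions in wild type. Runs were thus present in the windows of genes that rose and of genes that fell, Rps27l in wild type and Rpl35a under the transgenic label. None of the marked runs begins exactly at the first transcribed base. In Rps6, Rplp2, Rps27 and Rpl35a the marked run starts before that base and spans it. There the first transcribed base is itself a C followed by at least 4 bases that are each C or T. In Rps27l the run lies wholly before the first transcribed base, so it is not part of the message from that start. Rpl35a has 3 starts in the table and Rps27l has 2, of which the start with the run is shown. The run was looked for on the gene's strand only, with a gene counted once if any of its starts held it. It began exactly at the first transcribed base in 14 of the 66 members found in the table (21.2%) and in 813 of all 27025 genes (3.01%). Anywhere in the 30-base window it was found in 44 of 66 members (66.7%) and in 39.6% of all genes. A window without it says only that these letters are not there. Among tested members with the run in the window, 26 of 42 rose in wild-type UUO with a median log2 change of 0.32, and among those without it 12 of 22 rose with a median of 0.30. In libraries labelled transgenic the figures were 18 of 42 (median 0.24) and 7 of 22 (median 0.18), with medians close to each other in both. Of all genes tested, 31.3% and 32.5% rose in the same fits, close to the transgenic-labelled share among members without the run (31.8%).

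As a class, ribosomal protein messages made up more of the counts in UUO than in normal kidney. The 92 genes summed to 1.25%, 1.37% and 1.18% of all counts in the wild-type normal libraries and to 2.35%, 2.22%, 2.45% and 2.07% in the wild-type UUO libraries. In libraries labelled transgenic the shares were 1.23%, 1.51% and 1.33% in normal and 2.29%, 2.18%, 2.53% and 2.11% in UUO kidney. Every UUO library lay above every normal library, at 1.8 times the mean share in wild type and 1.68 times under the transgenic label. The size of this rise depended on what the counts were divided by. Against counts outside mitochondrially encoded genes the ratios were 1.71 and 1.59, and on the TMM scale, where the wild-type sum went from 15136 ± 1582 to 19584 ± 1028 CPM (SD, n = 3 and n = 4), the ratio was 1.29. On that scale the transgenic-labelled sums were 16712 ± 1760 CPM (SD, n = 3) and 19815 ± 1457 CPM (SD, n = 4), a ratio of 1.19, and the highest normal library, at 18500.1 CPM, lay only just below the lowest UUO library, at 18500.5 CPM. The gap between the states was thus narrowest on the TMM scale in libraries labelled transgenic. Large and small subunit genes moved alike, from 9055 ± 844 to 11440 ± 572 CPM and from 5879 ± 710 to 7953 ± 487 CPM in wild type (SD, n = 3 and n = 4).

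**Figure D1:**
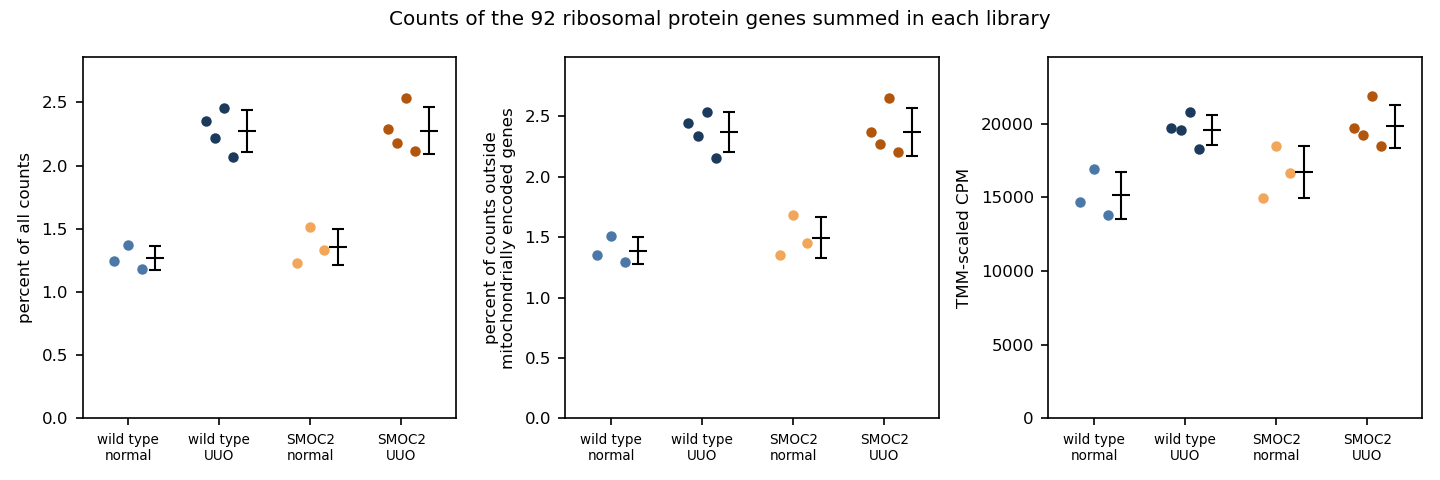
Summed counts of the 92 ribosomal protein genes in each library (points), with the group mean and SD (bars), as a percentage of all counts, as a percentage of counts outside mitochondrially encoded genes, and in TMM-scaled CPM. All 3 scales place the UUO libraries above the normal libraries of the same genotype label, with the smallest gap in CPM, where WT is wild type and SMOC2 is the transgenic label.

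In wild-type kidney, 50 of the 86 members that passed the filter on low counts rose in UUO and 1 fell, at an adjusted p under 0.05 in edgeR's quasi-likelihood test. Of all 17926 genes tested, 31.3% were called higher and 29.8% lower, so in this fit members were called higher more often than genes at large (58.1%) and lower hardly at all. The members' median log2 change was 0.32 against 0.05 for all genes, and 79 of 86 changes were above 0. By subunit, 27 of 46 large subunit genes (median 0.31) and 22 of 31 small subunit genes (median 0.39) rose. In 44 members every UUO library stood above every normal library, which held for 31.3% of all genes. The rises were small: 1 member, Rpl12, passed 2-fold. Scaling by library totals alone moved the median of all genes to 0.52 and raised the members called higher to 77, where 56.1% of all genes were called higher. The count rested on the normal libraries. Without wild-type normal replicate 3, the library with the lowest sum of members, 29 members rose (33.7%) where 28.9% of all genes did, so most of the excess of rises over genes at large was lost with that library. In the other 6 fits that left out a wild-type library 37 to 57 members rose (43% to 66.3%, against 27.3% to 31.1% of all genes).

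**Figure D2:**
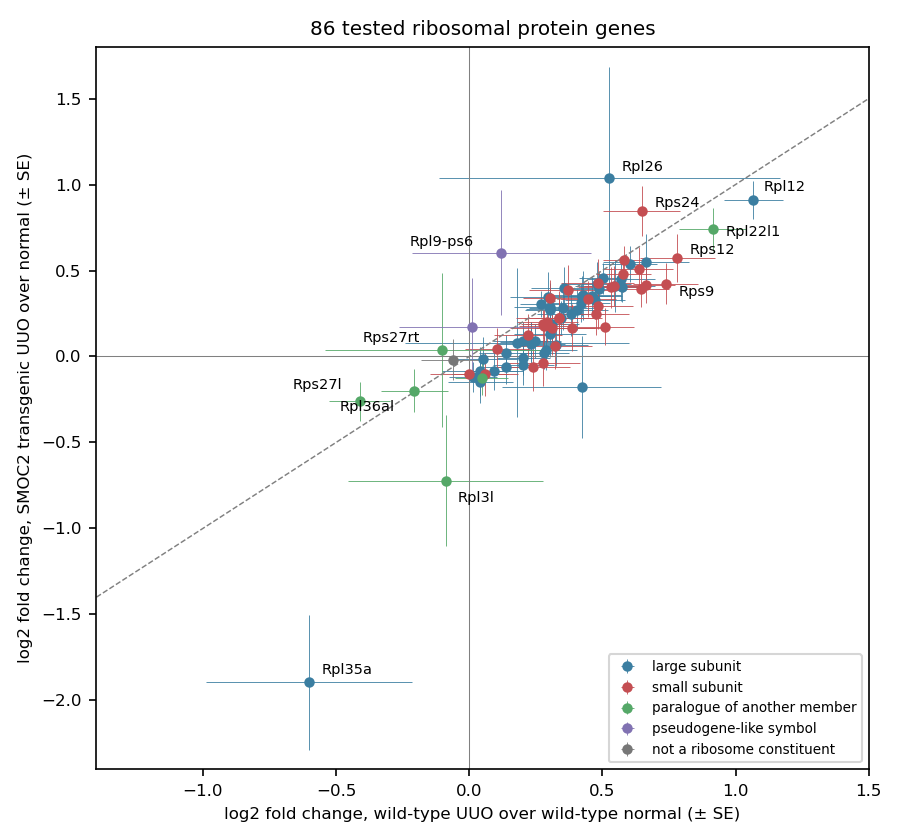
Log2 fold change of UUO over normal for each of the 86 tested members in wild type (horizontal axis) and in libraries labelled transgenic (vertical axis), with SE bars; colours give the class and the dashed line marks equal change. Most members lie between 0 and 0.8 on both axes, and Rpl35a, at -0.60 and -1.90, lies apart.

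The acidic stalk, built from RPLP0, RPLP1 and RPLP2, recruits the elongation factors to the large subunit. Rplp0 stood at 443, 499.8 and 429 CPM in the wild-type normal libraries and at 662, 583, 718 and 599 CPM in wild-type UUO, with no overlap, a log2 change of 0.49 ± 0.11 (SE) and an adjusted p of 0.0011. For Rplp1 the levels were 450.1, 528 and 456 CPM and 629, 618, 748 and 571 CPM, again without overlap (0.42 ± 0.12 SE, adjusted p = 0.00555). The stalk protein gene Rplp2 was at 172, 222 and 166 CPM and 236, 222, 242 and 210.1 CPM, and 1 normal library overlapped the UUO range. Its call, at an adjusted p of 0.0461, was lost with no filter (0.0706) and with only the groups compared (0.07), and in 5 of the 7 fits that left out a library, with adjusted p-values from 0.0512 (without wild-type UUO replicate 2) to 0.191 (without wild-type normal replicate 3). Under the transgenic label Rplp0 and Rplp1 rose by 0.39 ± 0.10 and 0.35 ± 0.12 (log2, SE), and Rplp2 stood at 251 ± 26.1 CPM (SD, n = 3) in normal and 258 ± 25.1 CPM (SD, n = 4) in UUO kidney, with an adjusted p of 0.789. The Rplp1 call was lost there without transgenic-labelled normal replicate 1 (adjusted p = 0.0651) or replicate 4 (0.0513).

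RPL5 and RPL11 carry the 5S ribosomal RNA into the large subunit and are the members that bind MDM2. Rpl5 was at 195, 211 and 179 CPM in wild-type normal and 236, 231, 240.4 and 231 CPM in wild-type UUO libraries, and it rose in both genotype labels by 0.27 ± 0.08 and 0.30 ± 0.08 (log2, SE; adjusted p = 0.0078 and 0.00348). Without wild-type normal replicate 3 the wild-type adjusted p was 0.051. Rpl11 was at 192, 241 and 197 CPM and 254, 278, 238 and 217 CPM. Its groups overlapped and it did not pass the test in either label, with log2 changes of 0.23 ± 0.13 and 0.07 ± 0.13 (SE) and adjusted p-values of 0.132 and 0.647. On another scale it passed: in wild type by upper-quartile scaling (0.35, adjusted p = 0.036) and by totals alone (0.71, 0.0002), and under the label by totals alone (0.57, 0.00103). The medians of all genes in the same 3 fits were 0.16, 0.52 and 0.54.

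RPS27A is made as a fusion with ubiquitin, from which it is cut, and RPS6 is the substrate of the S6 kinases downstream of mTOR. Rps27a was at 147, 166 and 133 CPM in wild-type normal and 209, 218, 223 and 196 CPM in wild-type UUO libraries, without overlap (0.51 ± 0.11 SE, adjusted p = 0.00106). Its levels in libraries labelled transgenic, 155, 203 and 173 CPM and 196, 176, 215 and 212 CPM, overlapped through normal replicate 3, and the change of 0.17 ± 0.11 (SE) had an adjusted p of 0.18. Without that library it was 0.28 with an adjusted p of 0.0436. Rps6 was at 158, 191 and 163 CPM and 216, 237, 202 and 183 CPM in wild type (adjusted p = 0.0385) and at 163, 207 and 163 CPM and 197, 201, 225 and 193 CPM under the transgenic label (adjusted p = 0.146). The wild-type call for Rps6 did not hold with no filter on low counts (adjusted p = 0.0588), with only the groups compared (0.0561), or without wild-type normal replicate 1 (adjusted p = 0.141) or 3 (0.119) or wild-type UUO replicate 1 (0.0739) or 2 (0.0891), and the transgenic-labelled change passed without normal replicate 3 (0.33, adjusted p = 0.0271).

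The largest rise that passed was that of Rpl12 (chromosome 2, 32961559 to 32965345), whose product sits at the base of the stalk. It stood at 194, 217 and 182 CPM in wild-type normal and 429, 420.3, 435 and 370.3 CPM in wild-type UUO libraries, and at 210.2, 261 and 213 CPM and 431, 418, 483 and 384 CPM under the transgenic label. All 8 UUO libraries lay above all 6 normal libraries, with log2 changes of 1.07 ± 0.11 (SE, adjusted p = 1.69e-06) and 0.91 ± 0.11 (SE, adjusted p = 6.36e-06). The gene of the small subunit protein RPS12, Rps12, was at 245, 292 and 210.4 CPM and 445, 389, 480.1 and 398 CPM in wild type (0.78 ± 0.14 SE, adjusted p = 0.000252) and at 255, 331 and 304 CPM and 454, 411, 516 and 380.5 CPM under the transgenic label (0.57 ± 0.14 SE, adjusted p = 0.00267). Rps9 was at 328, 376 and 275 CPM and 522, 520.4, 605 and 530.3 CPM in wild type. Here too every UUO library exceeded every normal one, by 0.74 ± 0.12 in log2 (SE, adjusted p = 0.000114), and the transgenic-labelled change was 0.42 ± 0.12 (SE, adjusted p = 0.00693). Rpsa encodes a small subunit protein that is also known as the laminin receptor precursor. It was at 235, 317 and 217 CPM and 430.4, 390.0, 416 and 358 CPM in wild type and at 243, 276 and 289 CPM and 392, 371, 424 and 346 CPM under the transgenic label, without overlap, and rose in both (adjusted p = 0.000659 and 0.00325). With pseudogene rows added to Rpsa, the transgenic-labelled groups overlapped, with normal up to 365 CPM and UUO down to 348 CPM. Both calls were kept.

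Rps16, Rpl39 and Rps24 were among the other largest rises. Rps16 was at 117, 131 and 109 CPM in wild-type normal and 194, 169, 214 and 175 CPM in wild-type UUO libraries. Rpl39, which lines the exit tunnel of the new protein, was at 27.1, 40.2 and 28.1 CPM and 49.9, 40.7, 58 and 52.6 CPM. Their log2 changes were 0.67 ± 0.11 and 0.66 ± 0.16 in wild type and 0.42 ± 0.11 and 0.55 ± 0.16 under the transgenic label (SE), all past the threshold. Rps24 was at 252, 253 and 204 CPM and 332, 349.9, 424 and 374 CPM in wild type and at 148, 215 and 225 CPM and 341, 311, 375 and 383 CPM under the transgenic label. It rose by 0.65 ± 0.14 and 0.85 ± 0.15 (SE), and its level summed with the pseudogene Rps24-ps3 ran from 191 to 426 CPM over the libraries.

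**Figure D3:**
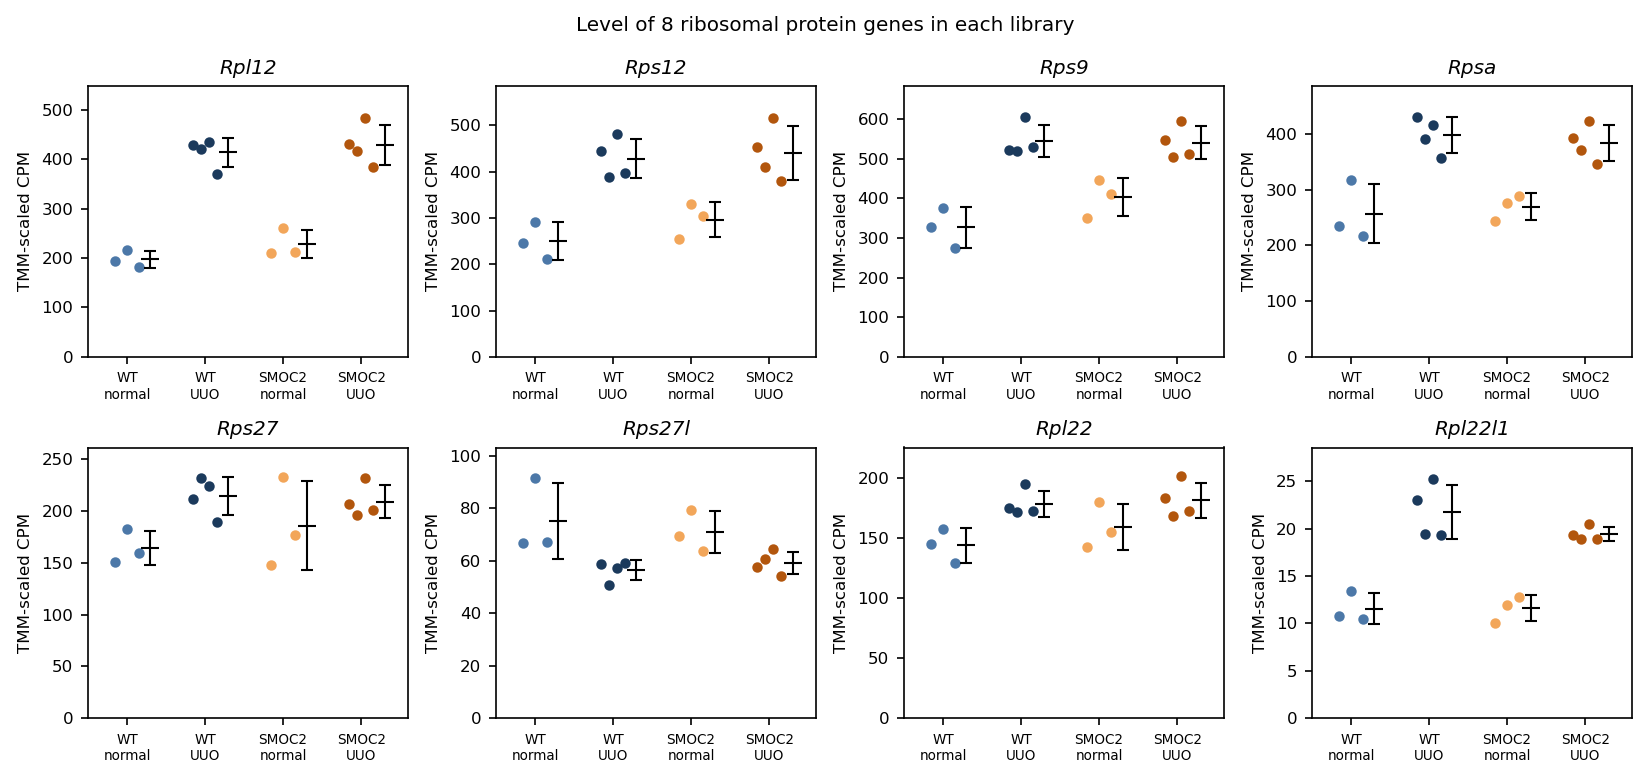
TMM-scaled CPM of 8 members in each library (points) with group mean and SD (bars); WT is wild type and SMOC2 the transgenic label. Rpl12, Rps12, Rps9, Rpsa and the paralogue Rpl22l1 stand higher in all UUO libraries than in the normal libraries of the same label, while Rps27l stands lower in all wild-type UUO libraries than in the wild-type normal ones.

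At the other end, some abundant members showed little difference between the states. Rpl36 was at 130.2, 162 and 117 CPM and 140.1, 147, 142 and 133 CPM in wild type and at 146, 198 and 178 CPM and 155, 148, 180.3 and 146 CPM under the transgenic label, with adjusted p-values of 0.789 and 0.31. For Rpl10, the protein added last to the large subunit, the log2 changes were 0.20 ± 0.10 and -0.01 ± 0.10 (SE; adjusted p = 0.0914 and 0.961). Without wild-type normal replicate 2 the wild-type change of Rpl10 passed, at 0.30 with an adjusted p of 0.0233. Both passed on another scale. Scaled by library totals alone, Rpl36 was higher in wild-type UUO by 0.52 and under the transgenic label by 0.35, with adjusted p-values of 0.00145 and 0.0152, as Rpl10 was by 0.68 and 0.49 (2.64e-05 and 0.000381). With that scaling the medians of all genes were 0.52 and 0.54, and 56.1% and 57.9% of all genes were called higher. Relative to those medians, only the wild-type change of Rpl10 lay clearly above.

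The paralogues differed in direction among themselves. Paralogues arose as copies of a member's gene, and some can take its place in the ribosome in some tissues. Of the 8, 6 were tested: 1 rose and 1 fell in wild-type UUO, 1 rose and none fell under the transgenic label, and their medians were -0.10 and -0.16. Rpl22l1 was at 10.8, 13.4 and 10.5 CPM in wild-type normal and 23, 19.4, 25.2 and 19.4 CPM in wild-type UUO libraries, and at 10.1, 11.9 and 12.8 CPM and 19.3, 18.9, 20.5 and 18.9 CPM under the transgenic label, without overlap. It rose by 0.91 ± 0.13 (SE, adjusted p = 2.31e-05) and 0.74 ± 0.13 (SE, adjusted p = 0.000152). Its parent Rpl22, with 66.9% of aligned coding positions identical, was at 145, 158 and 129 CPM and 175, 172, 195 and 173 CPM in wild type (0.31 ± 0.10 SE, adjusted p = 0.0151, and 0.0845 without wild-type normal replicate 3). In libraries labelled transgenic the change of Rpl22 was 0.19 ± 0.10 (SE, adjusted p = 0.117, and 0.0309 without normal replicate 3). Per kilobase of the median coding transcript, the level of Rpl22l1 was 21.4 CPM against 70.3 CPM for Rpl22 in wild-type normal kidney, and 40.3 CPM against 87.3 CPM in wild-type UUO kidney. The paralogue thus stayed below its parent in both states.

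Rps27l, a p53 target gene, is the paralogue of Rps27, and its product differs from RPS27 mainly near the start. Both coding sequences are 252 bases long without the stop codon and are shown in full from the start codon, from the GENCODE M21 transcripts Rps27-201 and Rps27l-201. Capitals mark the 60 positions that differ. They are spread along the whole length.
Rps27: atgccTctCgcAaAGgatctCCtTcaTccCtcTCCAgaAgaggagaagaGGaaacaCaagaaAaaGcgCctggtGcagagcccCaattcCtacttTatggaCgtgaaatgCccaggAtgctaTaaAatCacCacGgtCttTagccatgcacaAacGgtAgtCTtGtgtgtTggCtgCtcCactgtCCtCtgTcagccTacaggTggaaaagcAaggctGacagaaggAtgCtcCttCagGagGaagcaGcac
Rps27l: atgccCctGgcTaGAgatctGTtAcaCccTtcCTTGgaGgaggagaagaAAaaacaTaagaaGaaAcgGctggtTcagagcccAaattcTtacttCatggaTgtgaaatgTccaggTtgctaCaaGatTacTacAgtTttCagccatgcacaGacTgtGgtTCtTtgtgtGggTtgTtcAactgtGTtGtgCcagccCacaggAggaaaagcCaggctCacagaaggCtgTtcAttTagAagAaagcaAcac
Rps27l stood at 66.7, 91.8 and 67.1 CPM in wild-type normal and 58.7, 50.8, 57.3 and 59.2 CPM in wild-type UUO libraries, lower in all 4, and fell by 0.41 ± 0.11 on the log2 scale (SE, adjusted p = 0.00632). Under the transgenic label it was at 69.4, 79.5 and 63.9 CPM and 57.8, 60.6, 64.3 and 54.1 CPM, where the groups overlapped by 1 library (-0.26 ± 0.11 SE, adjusted p = 0.0614). There it passed without transgenic-labelled normal replicate 4 (-0.33, adjusted p = 0.0423) or UUO replicate 3 (-0.30, adjusted p = 0.0494). Rps27 was at 150.2, 182 and 159 CPM and 212, 232, 224 and 189 CPM in wild type and rose by 0.39 ± 0.13 (SE, adjusted p = 0.0232), a call not kept without wild-type normal replicate 1 (adjusted p = 0.0948) or 3 (0.0681). Its change under the transgenic label was 0.17 ± 0.13 (SE, adjusted p = 0.29, and 0.0183 without normal replicate 3). The fall of Rps27l is relative to other genes: scaled by library totals alone its log2 change was 0.06 in wild type (adjusted p = 0.618) and 0.24 under the transgenic label (0.0706).

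The other paralogues were low or did not pass the test. Rps27rt has a coding sequence identical to that of Rps27 over all 252 bases and shares 91.1% of its 50-base windows with other genes, so its level is uncertain, at 0.84, 0.78 and 0.86 CPM in the wild-type normal libraries. Rpl3l, the form of RPL3 known from striated muscle, was at 0.88, 1.17 and 0.7 CPM and 1.11, 0.54, 0.92 and 0.85 CPM in wild type and at 0.56, 1.44 and 0.68 CPM and 0.34, 0.55, 0.64 and 0.65 CPM under the transgenic label (adjusted p = 0.848 and 0.114), while Rpl3 rose from 213 ± 10.2 to 318 ± 17.8 CPM in wild type (adjusted p = 5.57e-05) and by 0.40 ± 0.09 in log2 (SE, adjusted p = 0.00103) under the label. A list of 10 striated muscle markers summed to 5.43 to 10.5 CPM over all libraries, with Ckm or Myh4 at 0 in each group. Rpl36al and Rpl36a, identical at 87.7% of aligned coding positions, did not move alike on the TMM scale: Rpl36al was at 23.4, 30 and 22.8 CPM and 20, 24.5, 21.3 and 22 CPM in wild type (-0.21 ± 0.13 SE, adjusted p = 0.173) and Rpl36a rose from 78 ± 13.1 to 116 ± 9.49 CPM (SD, n = 3 and n = 4; adjusted p = 0.00135). Scaled by totals alone, Rpl36al was above 0 in both labels (0.27 and 0.30, adjusted p = 0.0611 and 0.0359). Rpl7l1, with 53% of aligned coding positions shared with Rpl7, was at 65 ± 7.35 and 67.1 ± 3.57 CPM in wild type (adjusted p = 0.705) while Rpl7 rose from 342 ± 19.6 to 485 ± 12.1 CPM (SD, n = 3 and n = 4; adjusted p = 0.000257). Rpl10l, known from the testis, had 0 counts in all 14 libraries, which allows up to 3 counts in each. Rpl39l had 0 counts in 10 libraries and 3, 0, 3 and 4 counts in the transgenic-labelled UUO libraries. Rpl10l and Rpl39l, together with Rpl36-ps4, Rpl36a-ps1, Rpl9-ps1 and Rps12-ps3, are the 6 members left out by the filter. Of the 2 tested members with pseudogene-like symbols neither passed, with Rpl9-ps6 at 1.5, 2.24 and 2.1 CPM and 1.44, 1.95, 3.5 and 1.54 CPM in wild type and 0.94, 0.89 and 1.3 CPM and 1.43, 2.34, 1.56 and 1.06 CPM under the label. Rps19bp1 was at 19.3, 21.3 and 16.4 CPM and 17.1, 17.1, 19.5 and 19 CPM in wild type (adjusted p = 0.674). Scaled by totals alone Rps19bp1 was higher by 0.41 in wild type (adjusted p = 0.0074), Rpl7l1 by 0.52 in wild type (0.000352) and Rpl9-ps6 by 1.1 under the label (0.0141). By totals alone the medians of all genes were 0.52 in wild type and 0.54 under the label, so Rps19bp1 and Rpl7l1 did not exceed genes at large. With pseudogene copies summed, Rpl7l1 fell by 0.22 under the label (adjusted p = 0.0428).

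Under the transgenic label the pattern was similar, with fewer calls. Of the 86 tested members 34 rose (39.5%) and 1 fell, where 32.5% of all genes rose and 30.4% fell. In this fit the share called higher was thus close to that of all genes, while falls were again rare. The median log2 change was 0.22 against 0.04 for all genes, and in 29 members every UUO library lay above every normal one, against 32.6% of all genes. By upper-quartile scaling 47 members (54.7%) were called higher, against 38% of all genes. By totals alone 80 members were called higher, against 57.9% of all genes. Without transgenic-labelled normal replicate 1 the count was 19 (22.1%, against 29.7% of all genes) and without normal replicate 4 it was 22 (25.6%, against 28.5%), so in both fits members rose less often than genes at large. Without normal replicate 3 it was 46 (53.5%, against 30.3%), and in the 4 fits that left out a UUO library 28 to 37 (32.6% to 43%, against 30.6% to 31.6%). Several members described above as not passing under this label passed on another scale: Rpl22, Rps6 and Rps27a by upper-quartile scaling (adjusted p = 0.0213, 0.0342 and 0.0391), and these with Rpl11, Rplp2 and Rps27 by totals alone (adjusted p from 3.54e-05 for Rpl22 to 0.00103 for Rpl11). In both labels 33 members were called higher, and 17 were called in wild type only. Rpl31 was the 1 member called higher under the transgenic label and not in wild type. The same counts over all genes were not made, so these are not read as particular to the members. Log2 changes in the labels had a Pearson r of 0.82 over tested members and 0.92 over all tested genes. The counts do not show a difference between the labels, which is tested below.

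Among the 77 large and small subunit genes, 4 rows behaved unlike the rest. Rpl24 and Rpl23a averaged 0.44 and 2.11 CPM over the groups, where the other 75 ranged from 35.3 CPM (Rpl29) to 808 CPM (Rpl4), and they share 81.7% and 85.7% of their 50-base windows with other genes. Shared sequence is common in the class: 33 members share over 50% of their windows, with a median of 37.1%. The labels do not say how reads that fit several places were counted, and no direction is drawn from the Rpl24 and Rpl23a rows. Rpl26 stood at 74.9, 18.1 and 16.4 CPM in wild-type normal, 21.4, 90.1, 25.9 and 73.1 CPM in wild-type UUO, 17.5, 24.4 and 85.8 CPM in transgenic-labelled normal and 86.9, 85.1, 102 and 77.2 CPM in transgenic-labelled UUO libraries. These fall into separate ranges, at 16.4 to 25.9 CPM in 6 libraries and 73.1 to 102 CPM in 8, and the ranges crossed the groups: both were present in wild-type normal, wild-type UUO and transgenic-labelled normal kidney. Its processed pseudogene Gm15772 (chromosome 5, 3236431 to 3236868) moved the other way, between 37.8 and 95.4 CPM, and the sum of both rows was 93.4 to 152 CPM, a narrower range. Over the 438 bases of the pseudogene the coding sequence of Rpl26 differs at 2 positions, C177T and T288C, counted from the A of the start codon with the base of Rpl26 first. The windows of 29 bases around them, with the differing base in capitals, show how little separates the rows.
Rpl26, bases 163 to 191: gttcaggttgttcgCggacactacaaagg
Gm15772, bases 163 to 191: gttcaggttgttcgTggacactacaaagg
Rpl26, bases 274 to 302: ggcacaaccgtccaTgtgggcatccaccc
Gm15772, bases 274 to 302: ggcacaaccgtccaCgtgggcatccaccc
With pseudogene rows added to the member they share most windows with, an alternative added after seeing the data, the log2 change of Rpl26 went from 0.53 ± 0.64 to 0.18 ± 0.12 in wild type and from 1.04 ± 0.65 to 0.24 ± 0.12 under the transgenic label (SE), with adjusted p-values of 0.212 and 0.0971. Taken alone it passed under the transgenic label without normal replicate 4 (2.06, adjusted p = 0.0223).

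Rpl35a was the member with the largest fall, and its levels also formed separate ranges. It stood at 80.4, 31.2 and 106 CPM in wild-type normal, 21.8, 70.1, 33.5 and 66.5 CPM in wild-type UUO, 71.5, 97 and 94.1 CPM in transgenic-labelled normal and 24.6, 23.4, 26.9 and 19.2 CPM in transgenic-labelled UUO libraries. The lower range, 19.2 to 33.5 CPM, held all 4 transgenic-labelled UUO libraries but also wild-type normal replicate 2 and wild-type UUO replicates 1 and 3. Under the transgenic label it fell by 1.9 ± 0.39 on the log2 scale (SE, adjusted p = 0.000793), and in wild type the change was -0.60 ± 0.39 (SE, adjusted p = 0.195, and 0.0309 without wild-type normal replicate 2). Of its 50-base windows 28.9% occur in other genes. Adding pseudogene rows left the transgenic-labelled change at -1.86 ± 0.39 (SE). Rpl35a, Rpl24 and Rpl26 were the only core members whose median correlation with the others, over the 14 libraries after taking out group means, was below 0 (r = -0.30, -0.29 and -0.08), where the next lowest was 0.43 (Rpl21). These correlations describe the libraries, which share depth and scaling between genes.

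**Figure D4:**
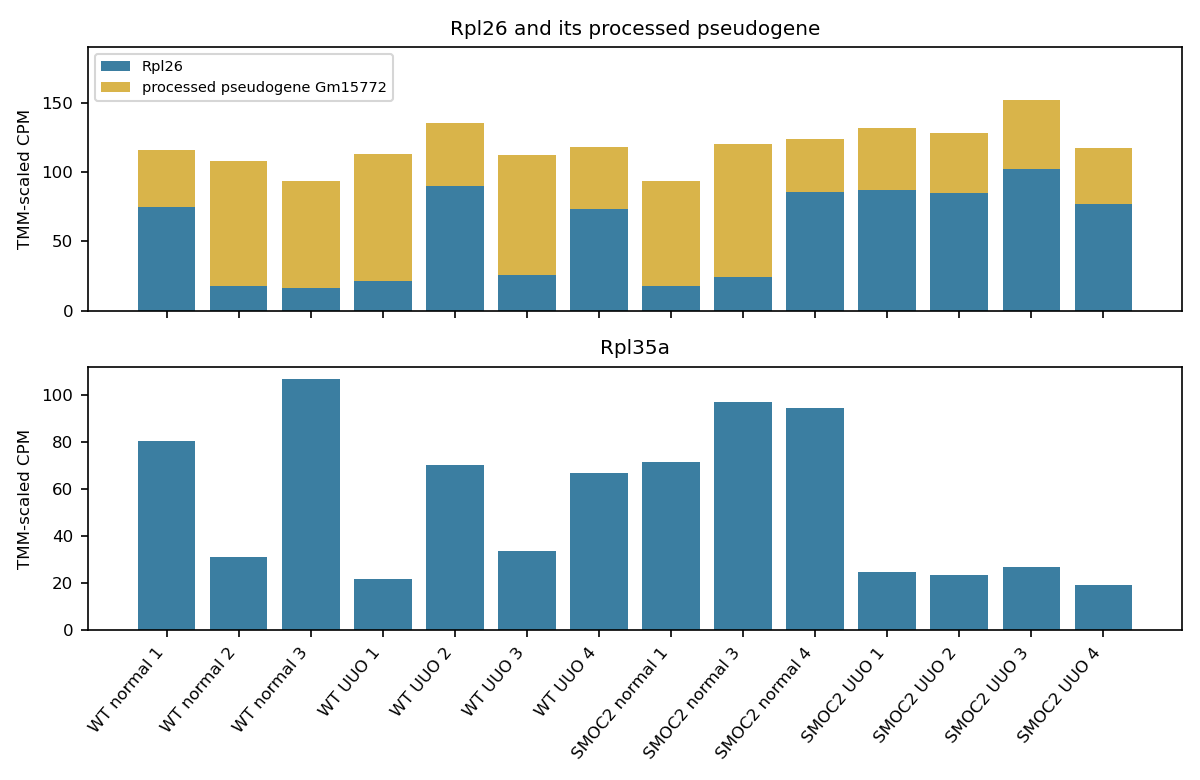
TMM-scaled CPM in each library of Rpl26 stacked with its processed pseudogene Gm15772 (top) and of Rpl35a (bottom). Rpl26 is low where Gm15772 is high, with a steadier sum of 93.4 to 152 CPM, and the low libraries of Rpl35a include all 4 transgenic-labelled UUO libraries and 3 wild-type libraries of both states.

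No member passed the test between the genotype labels. In normal kidney 0 of 86 members were called by edgeR, DESeq2 or limma-voom, where edgeR called 0.0279% of all genes. Of the 17926 genes tested, DESeq2 called 110 higher and 64 lower under the label, and limma-voom 8 and 1. In edgeR 10 of 86 members had an unadjusted p under 0.05, beside 12.8% of all genes. The lowest p was that of Rplp2, 0.43 ± 0.12 higher in log2 under the transgenic label (SE, adjusted p = 0.263). The median difference was 0.14 with 72 of 86 members higher under the label. The libraries also differed in a measure that leaves the members out: the median log2 deviation of 2505 protein-coding genes with transcripts under 1 kb, less that of 2679 genes with transcripts of 4 kb or more, was 0.02 ± 0.15 in wild-type normal and 0.14 ± 0.12 in transgenic-labelled normal libraries (SD, n = 3 each). Within the normal groups it was highest, at 0.19 and 0.26, in wild-type replicate 2 and transgenic-labelled replicate 3, which also had the highest sums of members. In UUO libraries it was lower, at -0.07 ± 0.06 and -0.06 ± 0.10 (SD, n = 4 each). Its part in the members' levels was not tested.

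In UUO kidney 0 of 86 members were called by any of the 3 tools, and edgeR called 0.831% of all genes. Of the 17926 genes tested, DESeq2 called 482 higher and 268 lower under the label, and limma-voom 147 and 85. In edgeR 2 members, Rpl35a and Rpl10a, had an unadjusted p under 0.05, where 15.2% of all genes did. The median difference was 0.01, with 44 of 86 above 0. Rpl35a was lower under the label by 1.03 ± 0.37 in log2 (SE, adjusted p = 0.196). The interaction of label and UUO, which asks whether the response itself differs, gave 0 members by any of the 3 tools. It gave 0% of all genes in edgeR and 0 genes in limma-voom, and in DESeq2 10 genes above 0 and 15 below. At an unadjusted p under 0.05 in edgeR the interaction gave 2 members (Rpl35a and Rps27a) and 6.44% of all genes. Its median over members was -0.12, with 73 of 86 below 0, beside a median of -0.04 for genes with transcripts under 1 kb and 0.08 for those of 4 kb or more. The median change was smaller under the label, where normal libraries had the higher median level, but no single member's difference passed. Smaller differences between the labels were not detectable with 3 and 4 libraries per group: the 95% interval of the interaction for Rpl12 was -0.48 to 0.17 in log2 and for Rps9 -0.67 to 0.05.

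Of the constituents outside the symbol rule, Rack1 passed and Fau did not. Rack1, a scaffold on the small subunit, rose from 435 ± 28.6 to 617 ± 31.3 CPM in wild type and from 447 ± 10.1 to 633 ± 52.1 CPM under the transgenic label (SD, n = 3 and n = 4; adjusted p = 0.000233 and 0.000229). Fau, a fusion of a ubiquitin-like protein with RPS30, did not pass (adjusted p = 0.331 and 0.59).

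**Figure D5:**
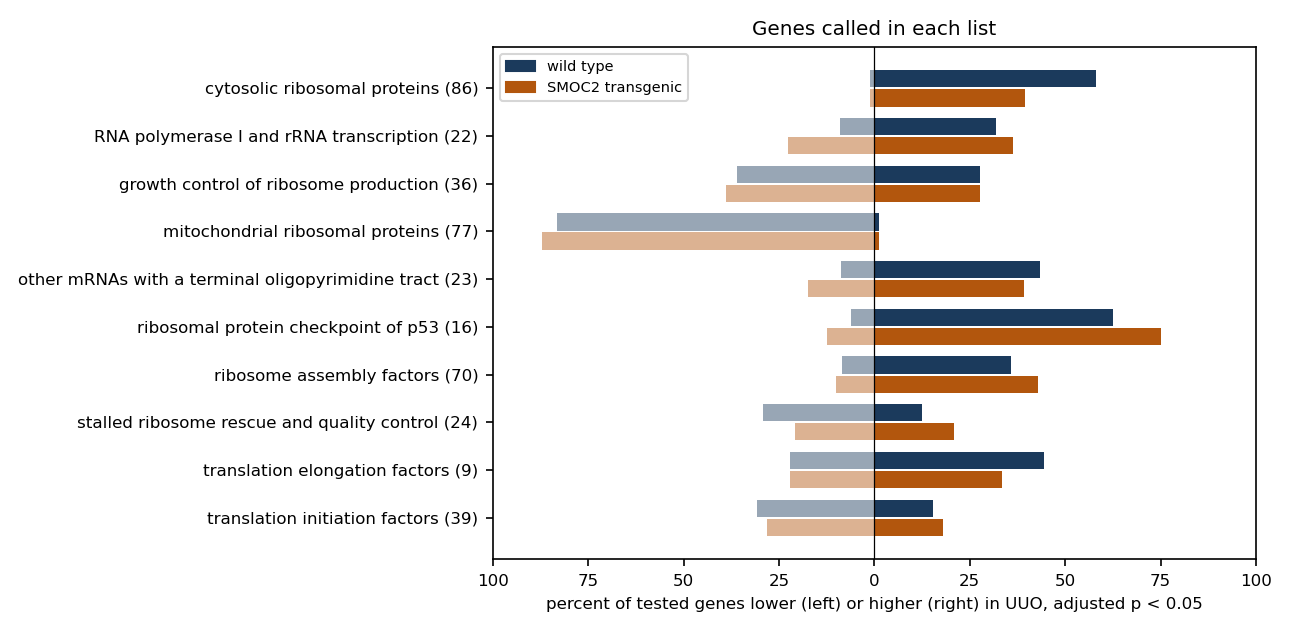
Percent of tested genes called lower (left, pale bars) or higher (right, full bars) in UUO at an adjusted p under 0.05, for the cytosolic ribosomal proteins and each related list of at least 9 tested genes (number tested in parentheses), in wild type and under the transgenic label. Cytosolic ribosomal proteins have almost no calls to the left, and mitochondrial ribosomal proteins almost none to the right. Of all genes tested, 31.3% rose and 29.8% fell in wild type, and 32.5% and 30.4% under the label.

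The rest of the translation machinery was mixed. In the same fits 31.3% of all genes tested rose and 29.8% fell in wild type, and 32.5% and 30.4% under the label. Of 23 other messages known to carry a TOP tract, 10 rose and 2 fell in wild-type UUO and 9 rose and 4 fell under the label, with medians of 0.15 and 0.07. The list held the nucleolar chaperone Npm1, at 152 ± 3.33 and 300 ± 33 CPM in wild type (SD, n = 3 and n = 4), the splicing factor Hnrnpa1, at 72.4 ± 2.32 and 162 ± 10.4 CPM, and the small nucleolar RNA hosts Gas5 and Snhg1, with log2 changes of 0.98 ± 0.12 and 1.02 ± 0.11 (SE), all higher in both labels. Of 39 initiation factors 6 rose and 12 fell in wild type, and 7 and 11 under the label. Eif6, which keeps the subunits apart and serves in large subunit assembly, rose from 80 ± 9.57 to 130 ± 2.79 CPM in wild type and from 89.1 ± 4.31 to 162 ± 7.16 CPM under the label (SD, n = 3 and n = 4). Of 9 tested elongation factors 4 rose and 2 fell in wild type, and 3 and 2 under the label. Eef2k, the kinase that inhibits elongation factor 2, rose by 1.08 ± 0.13 and 1.57 ± 0.14 in log2 (SE), and Eef1b2 by 0.46 ± 0.09 and 0.32 ± 0.09. Members and initiation factors thus gave unlike counts.

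Upstream of the ribosome, 25 of 70 tested assembly factors rose and 6 fell in wild type, and 30 and 7 under the label, with medians of 0.17 and 0.19. The shares of all genes were 31.3% and 29.8% in wild type and 32.5% and 30.4% under the label. In wild type this list thus differed more in its few falls than in its rises. Nop56 and Nop58, core proteins of the particles that methylate ribosomal RNA, rose in wild type from 26.3 ± 1.19 to 42.8 ± 3.3 CPM and from 32.7 ± 2.42 to 57 ± 7.24 CPM (SD, n = 3 and n = 4). For RNA polymerase I and its factors 7 of 22 rose and 2 fell in wild type, and 8 and 5 under the label. The share of rises was near that of all genes. The nucleolar helicase Ddx21, with the smallest p of the list, changed by 0.54 ± 0.12 and 0.76 ± 0.12 in log2 (SE). Of 36 genes of growth control 10 rose and 13 fell in wild type and 10 and 14 under the label, with rises no more frequent than over all genes. Myc, a transcription factor of ribosome genes, rose from 8.22 ± 1.64 to 61.3 ± 3.96 CPM in wild type and from 8.66 ± 2.28 to 58.7 ± 6.37 CPM under the label (SD, n = 3 and n = 4). Mtor fell in wild type from 215 ± 18.4 to 90.1 ± 15.7 CPM. Under the label it fell too, by 1.48 in log2 with median-ratio scaling, another planned scaling (edgeR adjusted p = 1.4e-06). Larp1b, a relative of Larp1, fell from 77.8 ± 8.37 to 25.9 ± 4.36 CPM in wild type and from 73.9 ± 3.31 to 27.7 ± 1.6 CPM under the label. Eif4ebp1, an mTOR substrate that restrains initiation, rose by 1.44 ± 0.14 in log2 under the label (SE). In wild type it rose too, by 1.14 in log2 with median-ratio scaling (edgeR adjusted p = 6.79e-06).

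Among 16 genes of the ribosomal protein checkpoint of p53, 10 rose and 1 fell in wild type and 12 rose and 2 fell under the label, with medians of 0.69 and 0.72. Over all genes 31.3% and 32.5% rose, and 29.8% and 30.4% fell. Trp53 rose from 38.3 ± 1.96 to 82.7 ± 6.62 CPM in wild type and from 41.7 ± 3.21 to 98.4 ± 6.23 CPM under the label (SD, n = 3 and n = 4). The p53 targets did not move as 1 group: the death genes Bbc3 and Pmaip1 rose by 2.03 ± 0.19 and 1.94 ± 0.18 in log2 in wild type (SE), whereas Ccng1 fell by 0.92 ± 0.10 and Rps27l, described above, fell too on the TMM scale. Of 24 genes of stalled ribosome rescue 3 rose and 7 fell in wild type and 5 and 5 under the label, with the antiviral zinc finger gene Zc3hav1 rising from 26.5 ± 1.73 to 72.3 ± 6.96 CPM and Hbs1l, a splitting factor, falling by 0.57 ± 0.06 in log2 (SE) in wild type, a call that was not kept when scaling by totals alone.

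Mitochondrial ribosomal proteins went the other way. Of 77 tested genes, 64 fell and 1 rose in wild-type UUO and 67 fell and 1 rose under the label, with medians of -0.62 and -0.63. Over all genes 29.8% and 30.4% fell. Mrpl12 stood at 131 ± 19.6 and 51.9 ± 6.02 CPM and Mrps35 at 64.7 ± 2.46 and 30 ± 1.83 CPM in wild type (SD, n = 3 and n = 4). The direction of some related lists depended on the scale. By library totals alone the medians of every related list but the mitochondrial one were above 0, and in that list 28 genes fell and 10 rose in wild type and 31 fell and 9 rose under the label (medians -0.15 and -0.13). The medians of all genes were 0.52 and 0.54 in those fits. Initiation factors, at 0.46 and 0.44, lay below them, and other lists lay on either side.

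The 10 genes outside the class whose log2 CPM followed the members' mean most closely over the 14 libraries were Klf16, Ppp1r12c, Plppr2, Eef1b2, Clk2, Pqbp1, Dpm2, Tssk4, Cdk9 and Srsf6, with Pearson r from 0.93 to 0.95. The 14 points share the state, the scaling and the depth of each library, and the values are a description without a test. Only Eef1b2, an elongation factor subunit, belongs to a list of the translation machinery used here.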

How the data were processed

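The deposited files hold raw read counts per gene for 14 mouse kidney libraries, and the authors named STAR 2.4.1d, featureCounts 1.4.4 and build mm10, per the submitters' processing notes. Neither the strand setting nor the handling of reads that fit several places is stated there. Gene symbols, types and transcripts came from GENCODE M21, which matched 47310 of 47729 identifiers, and rows without a symbol held 0.0288% of counts. Counts were tested with edgeR 4.0.16 (R 4.3.3): genes kept by filterByExpr, TMM scaling, a mean per group, the quasi-likelihood test over all 14 libraries and Benjamini-Hochberg adjustment over 17926 genes, with a threshold of 0.05. The code was tested on simulated data. DESeq2 1.42.0, limma 3.58.1 (voom), 3 planned scalings, other filters, a replicate block, fits of the compared groups alone and leaving out each library were tried. Scaling by totals outside mitochondrially encoded genes and summing pseudogene rows were added after seeing the data. Shared sequence was counted as 50-base windows of a member's transcripts that occur in another gene's. The members and lists were chosen with earlier results of these data known, and the mitochondrial ribosomal protein list was added to the rest by symbol. Values per library are given for the 6 largest and 6 smallest changes in each UUO comparison and for fixed members of known role, with paralogues and parents in part as group means, and from each list genes with the smallest p; a gene outside the symbol rule is not reported here. As separate animals are not stated, p-values cover only the spread among libraries, which may be technical.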

Additional observations from a re-analysis of the deposited data

Results flagged for a closer look

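For 2 members a single wild-type UUO library stood apart from the other 3, by a gap over the group's range above Dixon's 95% critical value for 4 samples. Rpl22 was at 194.7 CPM in wild-type UUO replicate 3, against 172 to 175 CPM in the other wild-type UUO libraries (gap over range 0.849). Rps9 was at 604.7 CPM in the same library, against 520.4 to 530.3 CPM in the others (0.882). That library also had the highest sum of members of its group, at 20801 CPM. These were the only 2 of 68 sets of 4 values examined, each a named member or the members' sum in 1 of the UUO groups. Chance gives about 1 in 20 for independent sets, and members of the same library are not independent.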

How the results depend on the processing

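The members' median less that of all genes kept its direction in both UUO comparisons when 1 library was left out (0.21 to 0.38 in wild type, 0.0982 to 0.29 under the label) and with other filters and tools. Scaling moves members and all genes alike, so it says nothing of that difference. Counts of members called depended on the scaling. By upper-quartile scaling 65 members rose in wild type (75.6%, against 36.5% of all genes) and 47 under the label (54.7%, against 38%). By library totals alone 77 members rose and 0 fell in wild-type UUO (median 0.79) and 80 rose under the transgenic label (median 0.72). In those fits 56.1% and 57.9% of all genes rose, with medians of 0.52 and 0.54. By totals outside mitochondrially encoded genes the members' figures were 77, 0 and 0.72 in wild type and 75 and 0.65 under the label. There 52% and 54% of all genes rose, with medians of 0.44 and 0.46. With pseudogene copies summed 2 members fell under the label. The ratio of summed members was 1.29 and 1.19 in TMM-scaled CPM. Leaving out 1 library gave 29 to 57 members higher and 1 to 2 lower in wild type, and 19 to 46 higher and 1 to 2 lower under the label. Of all genes 27.3% to 31.1% rose in those wild-type fits and 28.5% to 31.6% under the label.

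Some single members changed direction. On the TMM scale Rps27l in wild type was the only 1 of them past the threshold. On the other scales some passed in the new direction: by totals alone Rps19bp1 in wild type (adjusted p = 0.0074) and, under the label, Rpl10 (0.000381), Rps19bp1 (0.00256), Rpl7l1 (0.00385), Rpl36 (0.0152) and Rpl36al (0.0359), and outside mitochondrial genes Rps19bp1 in wild type (0.0238) and, under the label, Rpl10 (0.00201), Rps19bp1 (0.0087) and Rpl7l1 (0.0166). By totals alone and outside mitochondrial genes, the wild-type log2 changes were 0.27 and 0.19 for Rpl36al, 0.39 and 0.31 for Rpl3l, 0.41 and 0.34 for Rps19bp1 and 0.37 and 0.29 for Rps27rt, and by totals alone 0.064 for Rps27l. Under the label they were 0.49 and 0.41 for Rpl10, 0.32 and 0.24 for Rpl23a, 0.35 and 0.28 for Rpl36, 0.30 and 0.22 for Rpl36al, 0.37 and 0.30 for Rpl7l1, 0.48 and 0.40 for Rps19bp1 and 0.24 and 0.16 for Rps27l. By upper-quartile scaling the wild-type changes of Rpl3l, Rps19bp1 and Rps27rt were 0.025, 0.050 and 0.011, and under the label those of Rpl10 and Rps19bp1 were 0.11 and 0.096. Rpl10 was also at 0.011 there without a filter, 0.0028 with at least 50 counts in 3 libraries, 0.00057 in limma-voom and 0.0091 with only the groups compared. Rpl7l1 was at -0.11 in wild type with copies summed. Leaving out 1 library gave -0.0588 to 0.18 for Rpl36, -0.26 to 0.11 for Rpl3l, -0.00647 to 0.14 for Rpl7l1, -0.24 to 0.27 for Rpl9-ps6, -0.16 to 0.0246 for Rps19bp1 and -0.35 to 0.0341 for Rps27rt in wild type, and -0.0771 to 0.11 for Rpl10, -0.0301 to 0.21 for Rpl11, -0.21 to 0.00523 for Rpl7l1, -0.0448 to 0.0901 for Rplp2, -0.0785 to 0.0643 for Rps19bp1 and -0.37 to 0.52 for Rps27rt under the label. The cause was not tested. Of 64 results for named members, 37 kept direction and call in every alternative with all libraries, and 30 in every alternative.

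Same-numbered libraries did not deviate together (r from -0.0996 to 0.132 over 18 pairs, 1 over 0.1). With a replicate block 50 members rose and 1 fell in wild type and 33 rose and 1 fell under the label, and Rplp2 had an adjusted p of 0.0663 in wild type. Of all genes 30.8% and 31.7% rose with that block. With 3 or 4 libraries a group, small differences in members at low counts were not detectable.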
